A study of Mus musculus with 6 samples.

Results

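The 10 genes described here encode signals that call neutrophils into tissue, the receptors that neutrophils use to read them, and proteins that mark these cells: Cxcl1, Cxcl2, Cxcl3, Cxcl5, Cxcr2, Csf3, Csf3r, S100a8, S100a9 and Clec4e. They were selected by symbol from a table of 28368 mouse genes, and all 10 passed the filter on low counts that left 18049 genes for testing. The libraries come from whole mouse tumours in 2 groups of 3. The treated tumours had 12 h of a therapy that the labels call MS-DF-MS, and the control tumours had none. The series title describes implantable depots that release an agonist of STING, an adaptor of cytosolic DNA sensing, and then an inducer of apoptosis. The labels give neither the drugs, the mouse strain, the age nor the tumour line, and without a group that carried a depot alone, what the drugs did and what an implant did cannot be told apart.

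Neutrophils are short-lived leukocytes that leave the blood within hours of injury or infection. CXC chemokines with an ELR sequence near their start bind the receptor CXCR2 on neutrophils and direct them towards the tissue that makes them, while G-CSF, the product of Csf3, acts through its receptor on the bone marrow to raise their production and release. S100A8 and S100A9 form calprotectin, an abundant cytosolic complex of neutrophils that activated epidermis also makes, and Clec4e encodes Mincle, a lectin receptor of myeloid cells. In a whole tumour a change in RNA can come from more cells or from more RNA per cell, and these cannot be told apart.

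The 4 chemokine genes lie within 1 cluster on chromosome 5, with Cxcl5 from 90759360 to 90761624, Cxcl3 from 90786103 to 90789600, Cxcl1 from 90891241 to 90893115 and Cxcl2 from 90903871 to 90905938, all on the plus strand. The promoters of 3 of them are shown because they share a sequence that the rule for choosing genes did not use. Each line gives bases -120 to 30 around the annotated RefSeq start, on the plus strand of GRCm38.p6, and capitals mark matches to GGNNTTTCC on either strand, a form of the binding motif of NF-kB, which drives many inflammatory genes.
Cxcl1 (chr5:90891125-90891274): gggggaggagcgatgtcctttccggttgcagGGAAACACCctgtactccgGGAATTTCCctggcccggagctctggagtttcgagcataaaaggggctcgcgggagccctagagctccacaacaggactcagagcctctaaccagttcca
Cxcl2 (chr5:90903779-90903928): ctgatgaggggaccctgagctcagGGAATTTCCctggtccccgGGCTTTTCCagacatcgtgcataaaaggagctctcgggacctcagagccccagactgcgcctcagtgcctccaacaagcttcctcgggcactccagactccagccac
Cxcl3 (chr5:90785981-90786130): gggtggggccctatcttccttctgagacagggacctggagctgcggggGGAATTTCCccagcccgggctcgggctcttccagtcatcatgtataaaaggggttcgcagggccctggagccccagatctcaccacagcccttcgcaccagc

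The word GGAATTTCC occurred in all 3, beginning 70 bases before the start in Cxcl1, 96 in Cxcl2 and 72 in Cxcl3. Of 32851 RefSeq promoter windows of the same kind, from 250 bases before to 50 bases after a start, 5.82% held GGNNTTTCC on either strand. Windows were matched for 8 of the 10 genes, without Cxcl5 and Csf3. TTGCNNAA, a form of the C/EBP motif, was found in S100a9 and Clec4e and in 10.8% of all windows. GAAANNGAA, part of the interferon-stimulated response element, was found in Csf3r alone of the 8 and in 8.56% of all windows, and TGANTCA, the AP-1 motif, was found in none of the 8 and in 7.81% of all windows. Motifs were searched on both strands. A match describes the sequence and does not show that a factor bound there.

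Libraries held 57017043 to 66634551 counts. Treated 3 stood apart from the other 5 on the first principal component, at 72.9 against -37.9 to 13.3. Treated 1 held RNA of skin epithelium: the 10 keratinocyte markers summed to 136.2 CPM there (the usual counts-per-library-size scale, with TMM scaling), against 0.0903 to 0.186 CPM in the other treated libraries and 0.124 to 0.193 CPM in the controls. Krt14, a keratin of the basal layer, had 2739 counts in treated 1, and Krt6a, a keratin of activated epidermis, had 1856, while each of the other 5 libraries had at most 4 counts of either gene. Whether the libraries are separate animals is not stated in the labels, and the p-values therefore reflect only how far these samples differ, which may be technical.

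Across the 10 genes, treated 1 and treated 2 stood high, and treated 3 stood within or below the control range for 8 genes. In treated 1 and in treated 2, each of the 10 genes was above all 3 controls, a position that 33.3% and 30.9% of all tested genes had in these libraries. In treated 3, only S100a8 and S100a9 were above all 3 controls, Cxcl2, Csf3 and Clec4e were below all 3, and the other 5 were within the range of the controls. Over all tested genes, 30.7% were above and 30.4% below all 3 controls in treated 3, so the 2 and 3 of 10 seen there are close to the background. Taken as log2 differences from the mean of the controls, their medians were 2.29 for treated 1, 1.57 for treated 2 and -0.33 for treated 3, against medians between -0.003 and 0.014 over all tested genes.

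**Figure D1:**
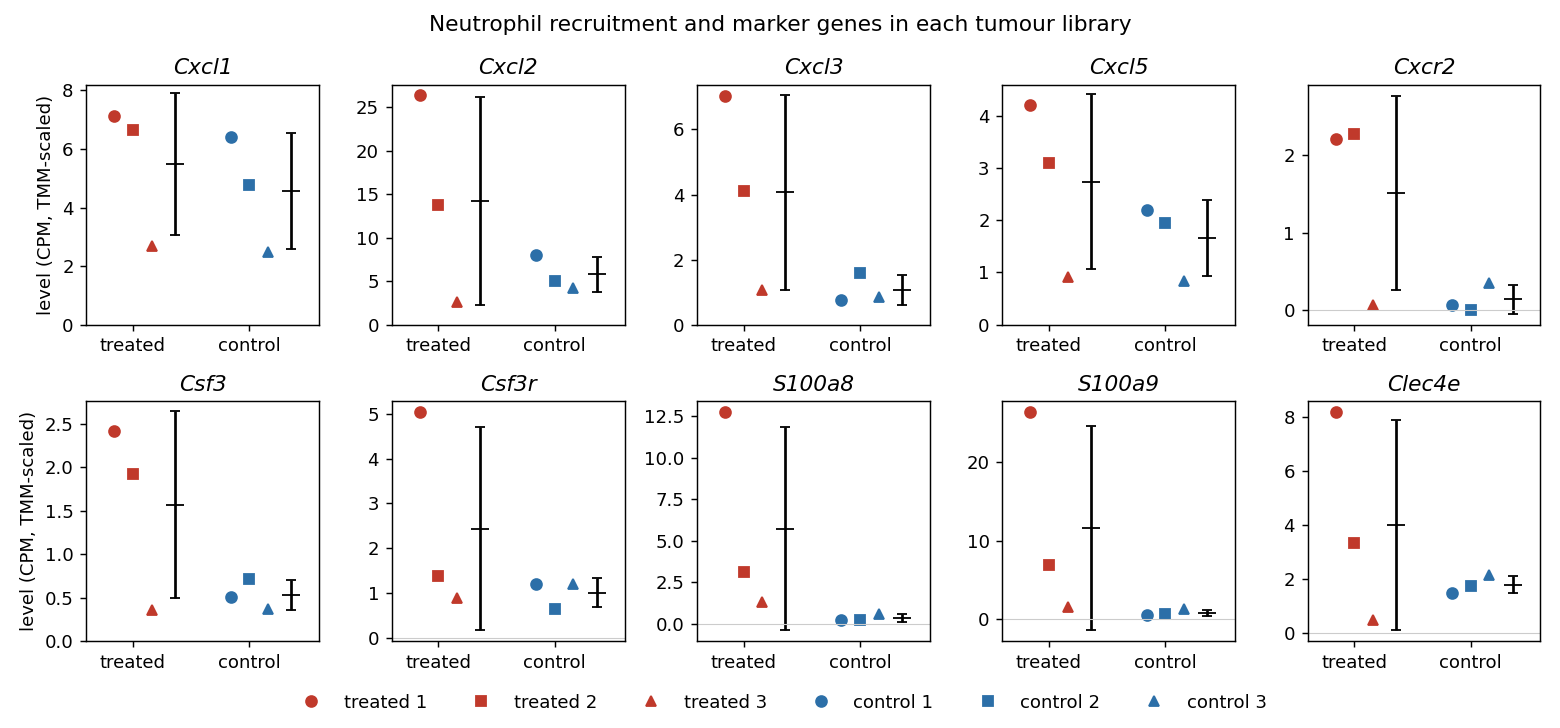
Level in CPM (linear axis, each panel on its own scale) of the 10 genes in each library, with treated on the left and control on the right. Black bars give mean ± SD over 3 libraries; treated 1 and treated 2 lie above every control in each panel, and treated 3 does so for S100a8 and S100a9 only.

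None of the 10 genes passed an adjusted p of 0.05 in edgeR's quasi-likelihood test of the 3 treated against the 3 control libraries. Over all tested genes 1.36% were called higher and 0.249% lower in treated tumours. All 10 fitted log2 fold changes were above 0, with a median of 1.43 against -0.003 for all tested genes. At an unadjusted p under 0.05, 5 of the 10 were higher and 0 lower (Cxcl3, Cxcr2, Csf3, S100a8 and S100a9), against 9.12% and 6.90% of all tested genes. In 2 of the 10, S100a8 and S100a9, all treated libraries were above all controls, against 12.0% of tested genes, and 0 of the 10 had all treated libraries below, against 11.2%. DESeq2 called 3 of the 10 higher (S100a8, S100a9 and Cxcl3), against 4.18% of all tested genes. Limma-voom called 0 of the 10, against 1.21% of all genes, and with sample quality weights also 0, against 3.33%. Without treated 3, edgeR called 4 of the 10 (the same 3 and Csf3) and 1.64% of all genes, and without treated 1 it called 0 of the 10 and 1.24% of all genes. These shares of all tested genes also stand as the background for the counts of other gene lists below.

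**Figure D2:**
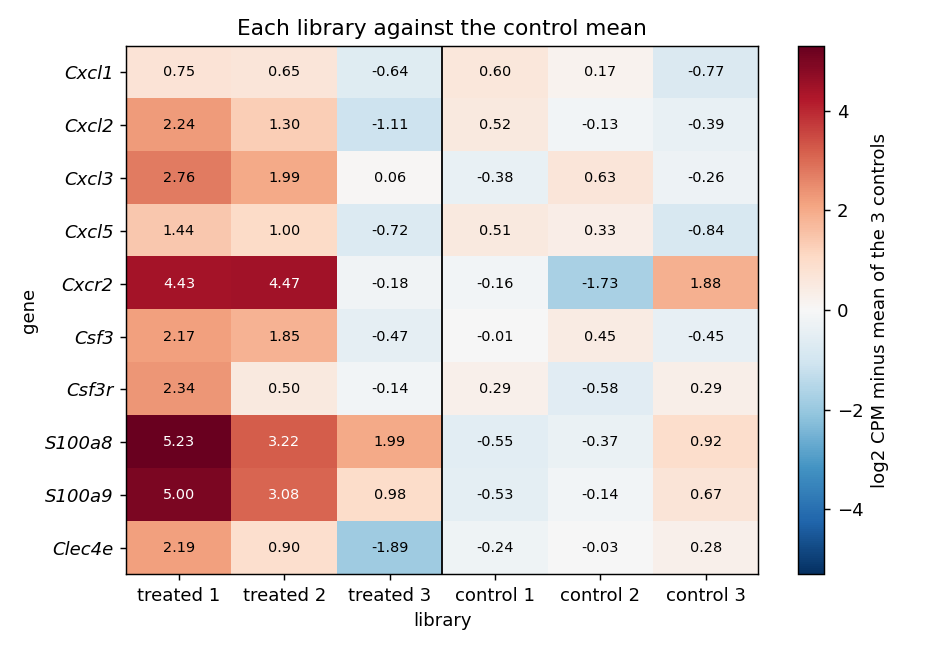
Log2 CPM of each gene in each library minus the mean of the 3 controls. Treated 1 runs from 0.75 (Cxcl1) to 5.23 (S100a8), treated 2 from 0.50 (Csf3r) to 4.47 (Cxcr2) and treated 3 from -1.89 (Clec4e) to 1.99 (S100a8).

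Cxcl2, a main CXCR2 ligand of macrophages and other activated cells, was at 26.4, 13.8 and 2.56 CPM in treated 1, 2 and 3, against 8.02, 5.08 and 4.25 CPM in controls 1, 2 and 3. Treated 1 and 2 were above the controls and treated 3 was the lowest of the 6 libraries, so the groups overlapped. Its log2 fold change was 1.30 ± 0.68 (SE, n = 3, edgeR adjusted p = 0.402), with a 95% interval from -0.27 to 2.87. Without treated 1 the fitted change was 0.50.

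Cxcl3, a close relative of Cxcl2 that binds the same receptor, was at 7.02, 4.12 and 1.05 CPM in treated 1, 2 and 3, against 0.772, 1.58 and 0.842 CPM in the controls. Treated 3 lay inside the control range. The fitted difference was the largest of the 4 chemokines, at 1.93 ± 0.63 on the log2 scale (edgeR adjusted p = 0.198) and a 95% interval from 0.47 to 3.39. DESeq2 called it (adjusted p = 0.0143, and 0.0143 to 0.47 over the alternatives), and so did edgeR without treated 3 (0.0311). Transcripts of Cxcl2 and Cxcl3 share an identical run of 110 bases, shorter than the paired 150 bp reads. Whether reads were divided wrongly between this pair was not tested. The longest run that Cxcl1 shares with either was 23 bases.

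Cxcl1, the ligand also known as KC in the mouse, was at 7.11, 6.65 and 2.70 CPM in treated 1, 2 and 3, against 6.41, 4.77 and 2.47 CPM in the controls. The groups covered nearly the same range. The log2 fold change was 0.27 ± 0.44 (edgeR adjusted p = 0.823), with a 95% interval from -0.74 to 1.28, and it was -0.022 without control 3.

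Cxcl5, made mainly by epithelium and other non-leukocytes, was at 4.21, 3.09 and 0.918 CPM in treated 1, 2 and 3, against 2.19, 1.94 and 0.842 CPM in the controls. Its log2 fold change was 0.72 ± 0.56 (edgeR adjusted p = 0.597), with a 95% interval from -0.58 to 2.02, and without treated 1 it was 0.27. Cxcl1 and Cxcl5 had the smallest root mean square difference of all pairs among the 10. It was 0.29 between their log2 CPM over the 6 libraries, each gene centred on its own mean. Genes were not scaled by how much they vary, so genes that vary little lie close on this measure. Both Cxcl1 and Cxcl5 were lowest in control 3 and next lowest in treated 3.

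The balance between the chemokines differed between libraries. The ratio of Cxcl2 to Cxcl1, both in CPM, was 3.71, 2.08 and 0.95 in treated 1, 2 and 3, against 1.25, 1.07 and 1.72 in the controls. For Cxcl3 to Cxcl1 the ratio was 0.987, 0.619 and 0.391 in the treated libraries and 0.121, 0.332 and 0.340 in the controls. The groups did not overlap for this ratio, but only narrowly, and they did for Cxcl2 to Cxcl1. Treated 3 had 70 counts of Cxcl3 and 179 of Cxcl1, and control 3 had 48 and 141. How often other gene pairs show no overlap was not counted. These ratios were not tested.

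A pair of platelet chemokine genes lies between Cxcl5 and Cxcl3 in the same cluster. Ppbp, whose product gives rise to a further CXCR2 ligand, had 67, 55 and 18 counts in treated 1, 2 and 3, against 11, 34 and 20 in the controls (log2 fold change 1.03 ± 0.63, edgeR adjusted p = 0.477). Pf4, which encodes platelet factor 4, had 331, 115 and 80 counts in the treated libraries, against 320, 212 and 164 in the controls (-0.46 ± 0.51, adjusted p = 0.725). For both genes the groups overlapped.

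Cxcr2, the receptor of these ligands, lies on chromosome 1 from 74153989 to 74161246. It had 144, 146 and 4 counts in treated 1, 2 and 3, against 4, 0 and 20 counts in the controls, or 2.20, 2.27 and 0.0602 CPM against 0.0618, 0 and 0.351 CPM. Treated 1 and 2 were alike and high, and treated 3 was as low as control 1. The 0 in control 2 allows a level of up to 0.0466 CPM (3 counts, counting error only). The log2 fold change was 3.47 ± 1.39 (edgeR adjusted p = 0.279), with a 95% interval from 0.25 to 6.69. This interval takes in the spread between treated libraries, from 4 to 146 counts, as well as the few counts. The log2 fold change was 3.09 without treated 1 and 4.04 without treated 3.

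Csf3, the gene of G-CSF on chromosome 11 from 98701263 to 98703629, was at 2.42, 1.93 and 0.361 CPM in treated 1, 2 and 3, against 0.510, 0.714 and 0.368 CPM in the controls. Treated 3 was the lowest library by a small margin. Its log2 fold change was 1.56 ± 0.65 (edgeR adjusted p = 0.295), with a 95% interval from 0.06 to 3.05. Without treated 3 it was called at 2.03 (adjusted p = 0.0499, and 0.0499 to 0.576 over the alternatives). Its profile over the libraries was nearest to that of Cxcl3 among the 10 genes, with a root mean square difference of 0.31.

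Csf3r, which encodes the G-CSF receptor and lies on chromosome 4 from 126024550 to 126044440, was at 5.03, 1.38 and 0.873 CPM in treated 1, 2 and 3, against 1.19, 0.637 and 1.19 CPM in the controls. Only treated 1 stood well apart. The log2 fold change was 1.27 ± 0.64 (edgeR adjusted p = 0.382, 95% interval from -0.21 to 2.75), and without treated 1 it was 0.17.

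S100a8 and S100a9 had the largest fitted log2 fold changes of the 10 genes. They are neighbours on chromosome 3, S100a8 from 90668978 to 90670035 on the plus strand and S100a9 from 90692632 to 90695721 on the minus strand. S100a8 had 832, 202 and 88 counts in treated 1, 2 and 3, against 13, 15 and 35 in the controls, or 12.7, 3.14 and 1.33 CPM against 0.201, 0.233 and 0.614 CPM. All treated libraries were above all controls and treated 1 stood well above the rest. The log2 fold change was 4.04 ± 0.89 (edgeR adjusted p = 0.0794), with a 95% interval from 1.99 to 6.10. S100a9 was at 26.3, 6.94 and 1.596 CPM in treated 1, 2 and 3, against 0.541, 0.714 and 1.28 CPM in the controls. Here too the groups did not overlap, although treated 3 was only just above control 3. The fitted difference on the log2 scale was 3.78 ± 0.93 (edgeR adjusted p = 0.107), with a 95% interval from 1.63 to 5.93.

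The library with the most S100a8 and S100a9, treated 1, was also the one with skin epithelium RNA. Those markers were high there alone, with 10 of 10 detected, and activated keratinocytes are known to make both proteins. In treated 2 and 3 their sums were 0.186 and 0.0903 CPM, against 0.124 to 0.193 CPM in the controls. The part of skin in the result was not tested. Without treated 1 the log2 fold change of S100a8 was 2.68 (edgeR adjusted p = 0.0978, and 0.0024 to 0.315 over the alternatives) and that of S100a9 was 2.34 (0.146, and 0.00918 to 0.392). Red blood cell markers, a measure of blood in the sample, summed to 936.7, 311.3 and 173.0 CPM in treated 1, 2 and 3, against 61.6, 105.7 and 155.3 CPM in the controls, and 3 of the 4 were tested, with 0 called by edgeR, 2 at an unadjusted p under 0.05 and 1 called by DESeq2. The order of the 6 libraries was the same for this sum, for S100a8 and for S100a9: treated 1, treated 2, treated 3, control 3, control 2 and control 1. The part of blood in the result was not tested.

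**Figure D3:**
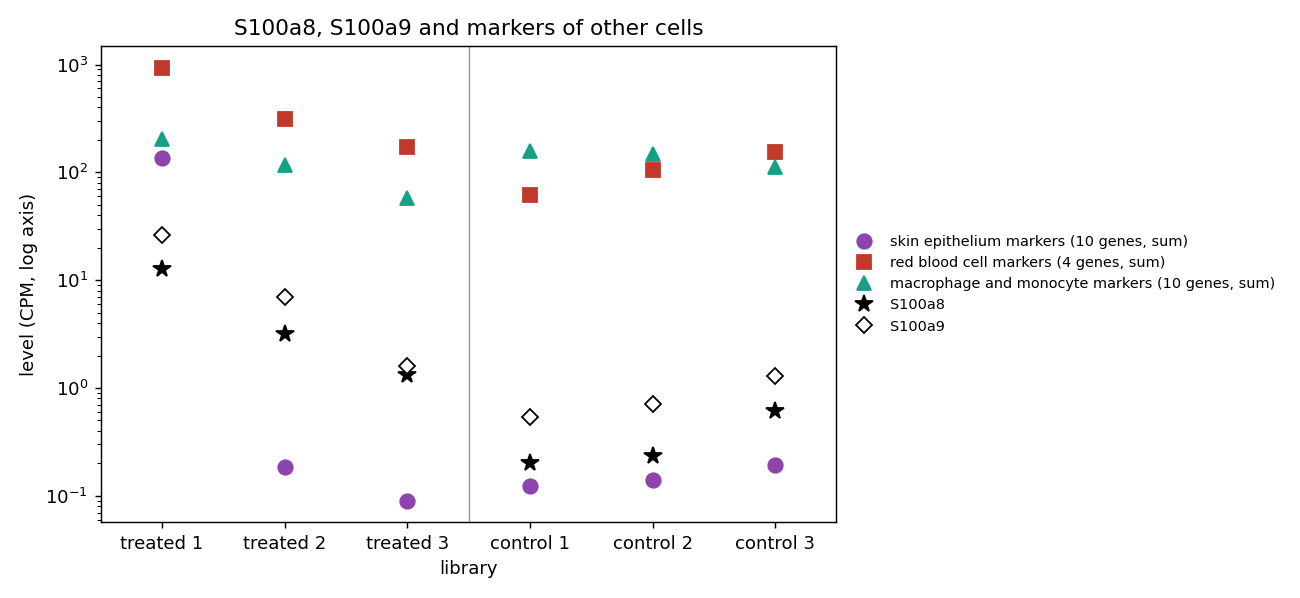
Level in CPM (log axis) of S100a8, S100a9 and the summed markers of skin epithelium, red blood cells, and macrophages and monocytes in each library, treated on the left. Skin epithelium markers reach 136.2 CPM in treated 1 and stay at or below 0.193 CPM elsewhere, while red blood cell markers run from 936.7 CPM in treated 1 down to 61.6 CPM in control 1.

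Neighbouring S100 genes had much smaller fitted values. S100a6, a widely expressed calcium-binding protein gene on the same stretch of chromosome 3, had 1334, 972 and 614 counts in treated 1, 2 and 3, against 968, 785 and 745 in the controls (log2 fold change 0.15 ± 0.26, edgeR adjusted p = 0.83), and S100a4 had 217, 149 and 81 counts against 267, 185 and 95 (-0.34 ± 0.44, adjusted p = 0.77). Of 9 other S100 genes and receptors of S100A8 and S100A9, neither edgeR nor DESeq2 nor limma-voom called any, a count of 0. With p left unadjusted and under 0.05, S100a11 was higher (0.21 ± 0.08, edgeR adjusted p = 0.237) and Ager, a receptor of S100 proteins, was lower (-0.65 ± 0.23, adjusted p = 0.227). Bsg, the most abundant and also a reported receptor of S100A9, was at 893.7 to 997.9 CPM in treated and 984.0 to 1002 CPM in control tumours.

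Clec4e, which lies on chromosome 6 from 123281789 to 123289870 on the minus strand, was at 8.17, 3.32 and 0.452 CPM in treated 1, 2 and 3, against 1.48, 1.72 and 2.14 CPM in the controls. The controls lay close together, with 2 treated libraries above them and treated 3 below them. The log2 fold change was 1.16 ± 0.79 (edgeR adjusted p = 0.535), with a 95% interval from -0.67 to 2.99, and without treated 1 it was 0.08. Macrophage and monocyte markers, whose cells also express Clec4e, summed to 201.8, 116.4 and 58.3 CPM in treated 1, 2 and 3, against 157.4, 148.8 and 111.5 CPM in the controls. Of these 10 markers, 2 had a fitted change above 0, and the median was -0.25. Ly6c2 went against the sum, at 7.43, 4.49 and 1.58 CPM against 0.927, 1.26 and 1.21 CPM (1.99 ± 0.51, edgeR adjusted p = 0.116). The part of these cells in the result was not tested.

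Among 11 partners and neighbouring lectins of Clec4e, edgeR, DESeq2 and limma-voom each called 0, and 0 had p under 0.05 before adjustment. Their median log2 fold change was 0.14, with medians of 0.69, -0.05 and -0.99 in treated 1, 2 and 3. Clec4d, the adjoining gene whose product pairs with Mincle, was at 6.39, 3.56 and 1.48 CPM in treated 1, 2 and 3, against 2.35, 2.24 and 2.09 CPM in the controls (0.78 ± 0.46, edgeR adjusted p = 0.464). Clec7a, the beta-glucan receptor Dectin-1, was at a log2 fold change of -0.92 with an SE of 0.46 (edgeR adjusted p = 0.382), and Bcl10, an adaptor downstream of these receptors, 0.19 ± 0.08 (0.322).

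**Figure D4:**
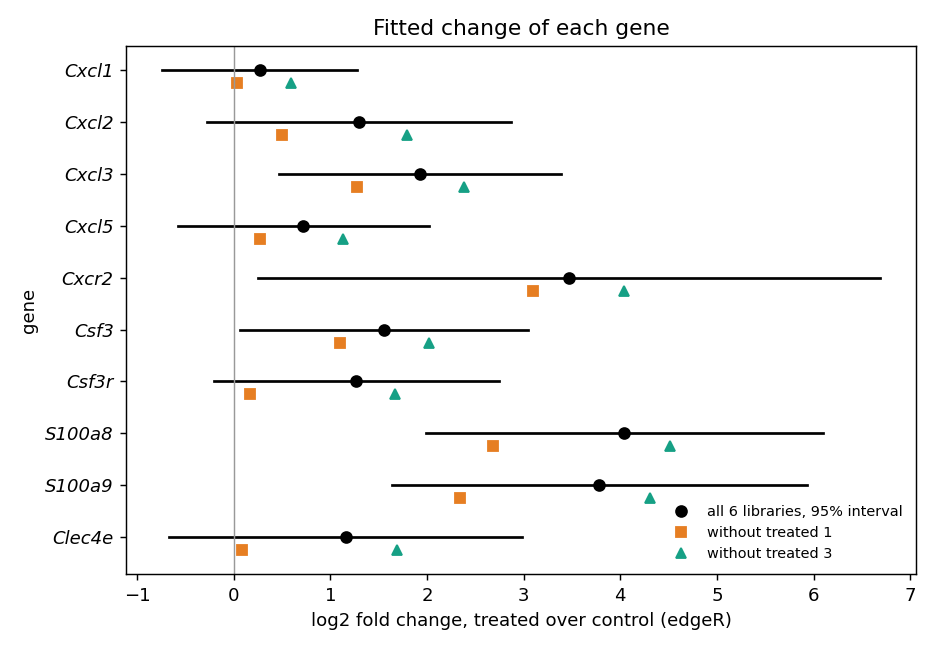
Log2 fold change of treated over control from edgeR with its 95% interval (black), and the same fit without treated 1 (squares) and without treated 3 (triangles). The values without treated 1 lie to the left, at 0.08 for Clec4e and 0.17 for Csf3r, and the intervals of Cxcl3, Cxcr2, Csf3, S100a8 and S100a9 lie above 0.

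Levels of different genes were compared in the FPKM that the authors deposited, which divide by gene length. In treated tumours S100a9 had the highest mean, 19.7 ± 22.2 FPKM (SD, n = 3), followed by S100a8 at 7.29 ± 7.88 and Cxcl2 at 6.07 ± 5.14 FPKM, none of which differ beyond their spread. In control tumours Cxcl2 was highest at 2.47 ± 0.85 FPKM, with Cxcl1 next at 2.15 ± 0.94 and S100a9 at 1.43 ± 0.66 FPKM, again within their spread. Cxcr2 was the lowest of the 10 in both groups, at 0.434 ± 0.361 FPKM in treated and 0.0386 ± 0.0529 FPKM in control tumours. S100a9 exceeded S100a8 in each library, by ratios of 2.75, 2.96 and 1.61 in treated 1, 2 and 3 and of 3.90, 4.16 and 2.80 in the controls.

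The genes with the nearest profiles were sought for 3 of the 10 by the root mean square difference of centred log2 CPM over the 6 libraries. For Cxcl2 the nearest were Cd14 (0.24), Osm (0.26), Fcgr1 (0.31), Hcar2 (0.34) and Epsti1 (0.34). Cd14, a co-receptor for bacterial lipopolysaccharide, was at 20.2, 11.9 and 2.91 CPM in treated 1, 2 and 3, against 8.74, 6.01 and 4.86 CPM in the controls. Its order of libraries was that of Cxcl2, the likeness by which it was selected. Near to Cxcr2 were Ngp (0.66), which encodes neutrophilic granule protein, Duox1 (1.04), Tarm1 (1.09) and Cd69 (1.14), all at larger distances. Near to S100a8 were Retnlg (0.61), a gene of circulating mouse neutrophils, Oas3 (0.62), Ifi44 (0.71) and Oasl2 (0.71). Oas3, Ifi44 and Oasl2 are interferon-induced genes. Retnlg had 190, 63 and 24 counts in treated 1, 2 and 3, against 0, 3 and 19 in the controls. All treated libraries were above all controls, as for 12.0% of tested genes. S100a8, by whose profile Retnlg was selected, had the same trait.

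Other neutrophil genes gave a mixed picture. Of 15 tested surface and cytosolic genes, 1 rose and 0 fell, with a median log2 fold change of 1.53 and medians of 2.27, 1.36 and 0.16 in treated 1, 2 and 3. The gene that rose was Hdc, which makes histamine, at 9.79, 7.47 and 2.08 CPM in treated 1, 2 and 3, against 0.942, 0.575 and 1.05 CPM in the controls (2.91 ± 0.55, edgeR adjusted p = 0.0497). Its call held under 4 of 14 alternatives, with adjusted p-values from 1.577e-07 (DESeq2) to 0.239, and was lost without treated 1 (adjusted p = 0.0935), without treated 2 (0.17) and without controls 1, 2 and 3 (0.148, 0.239 and 0.181). The next by p were Slpi, a protease inhibitor (2.04 ± 0.45, edgeR adjusted p = 0.0793), Acod1, which makes itaconate (2.95 ± 0.72, 0.105), and Mxd1 (0.56 ± 0.17, 0.174). At an unadjusted p under 0.05, 8 of the 15 were higher, against 9.12% of all tested genes. DESeq2 called 6 (4.18% of all genes), limma-voom 0 (1.21%) and limma-voom with sample quality weights 2 (3.33%). Without treated 3, edgeR called 6 (1.64% of all genes), and without treated 1 it called 0 (1.24%). Mast cells and basophils also express Hdc, and their 6 markers in the table summed to 2.14, 1.03 and 0.105 CPM in treated 1, 2 and 3, against 1.33, 0.497 and 0.754 CPM in the controls.

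Ly6g, the surface antigen that defines mouse neutrophils, was nearly undetected, with 8, 0 and 0 counts in treated 1, 2 and 3, against 0, 0 and 8 in the controls. Granule genes ranged from near 0 to abundant. The protease genes Elane and Prtn3 had 1 and 10 counts in treated 2 and 0 in the other 5 libraries. Lcn2, which encodes an iron-binding granule protein that epithelium also makes, had 1831, 895 and 176 counts in treated 1, 2 and 3, against 750, 59 and 406 in the controls (1.18 ± 0.93, edgeR adjusted p = 0.601). Of 7 tested granule genes, edgeR, DESeq2 and limma-voom each called 0, and 0 had p under 0.05 before adjustment. Their median log2 fold change was 0.85, with medians of 1.86, 0.31 and -0.86 in treated 1, 2 and 3. Ngp had 69, 32 and 0 counts in treated 1, 2 and 3, against 0, 0 and 9 in the controls (3.30 ± 1.72, edgeR adjusted p = 0.399), Mmp8, a neutrophil collagenase, was at 2.03, 1.46 and 0.391 CPM, against 0.587, 0.280 and 0.930 CPM (1.11 ± 0.65, 0.454), and Lyz2, lysozyme of all myeloid cells, was at 54.3, 32.2 and 14.7 CPM, against 68.0, 62.5 and 46.1 CPM (-0.80 ± 0.40, 0.375). Of the neutrophil markers set for cell type, Csf3r, S100a8, S100a9, Mmp8 and Mmp9 had at least 13 counts in every library. Cxcr2, Retnlg, Ngp, Ly6g, Ltf and Cd177 were at or near 0 in some libraries, and Camp was not among the deposited genes.

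**Figure D5:**
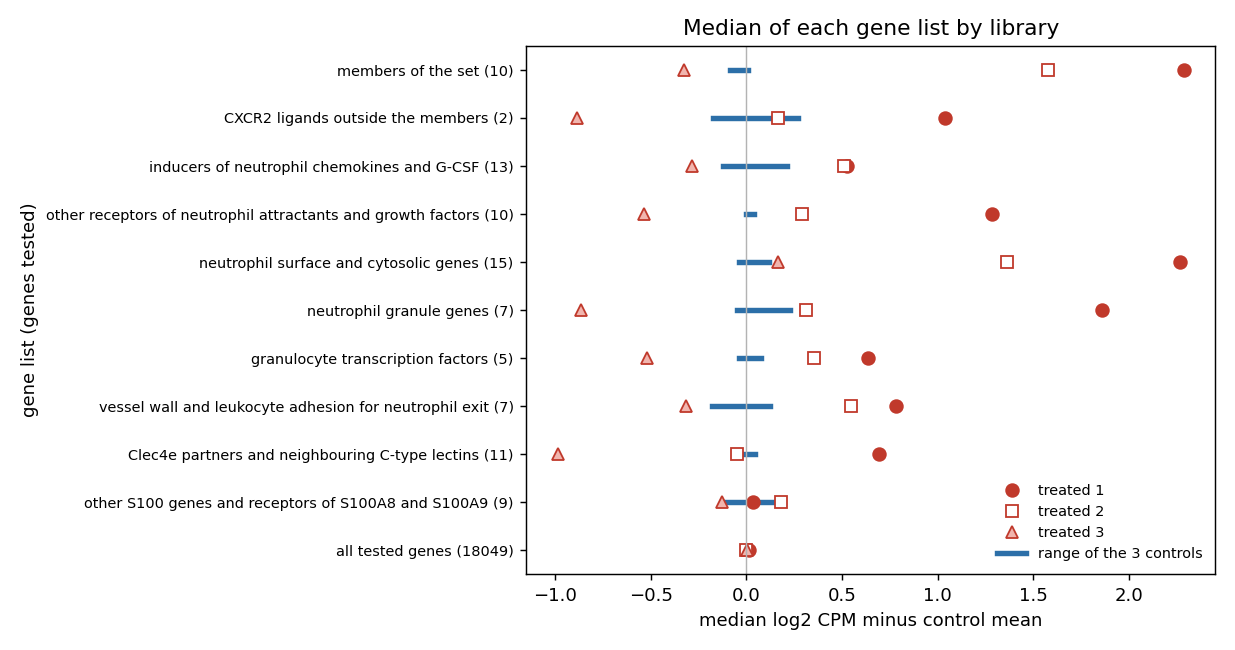
Median log2 CPM minus the control mean for the 10 genes, for 9 related gene lists and for all tested genes, in each treated library (red symbols) and as the range of the 3 controls (blue bars). The 10 genes and the surface and cytosolic list reach 2.29 and 2.27 in treated 1, and treated 3 lies below the control range for the 10 genes and for 7 of the 9 lists, the exceptions being the surface and cytosolic list at 0.16 and the other S100 list at -0.13.

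Genes upstream of the chemokines and of G-CSF had a median log2 fold change of 0.31. The list held inducers and receptors, together with regulators such as Tnfaip3 and with Csf1. Of its 13 tested genes, 0 were called by edgeR and 2 had an unadjusted p under 0.05, both higher. DESeq2 called 2, limma-voom 0 and limma-voom with sample quality weights 1, Tnfrsf1a. Tnfrsf1a, the main TNF receptor, was at 139.2, 163.7 and 143.2 CPM in treated 1, 2 and 3, against 119.0, 123.0 and 118.9 CPM in the controls (0.31 ± 0.07, edgeR adjusted p = 0.105). Its treated libraries were all above the controls, as for 12.0% of tested genes. Il6 was at 6.41, 7.10 and 1.40 CPM in the treated libraries, against 1.42, 1.96 and 2.09 CPM (1.45 ± 0.54, edgeR adjusted p = 0.243). Its treated 1 and 2 lay above all controls, and its treated 3 was only just below them, at 1.40 against 1.42 CPM in control 1. Cxcl2, Csf3 and Clec4e also had treated 3 below all controls, while Cxcl1, Cxcl3 and Cxcl5 did not. Tnfaip3, an inhibitor of NF-kB, was at a log2 fold change of 0.35 with an SE of 0.17 (edgeR adjusted p = 0.357).

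Of 10 tested further receptors of neutrophil attractants and growth factors, 0 were called by edgeR, 1 by DESeq2, 0 by limma-voom and 1 by limma-voom with sample quality weights, and 1 had an unadjusted p under 0.05. This was Cxcr4, a receptor that retains neutrophils in the marrow and is expressed by many other cells, at 6.46, 4.88 and 5.69 CPM in treated 1, 2 and 3, against 3.37, 2.76 and 2.16 CPM in the controls (1.04 ± 0.23, edgeR adjusted p = 0.0771). Here treated 3 was as high as the others. Fpr2, a formyl peptide receptor, had 1.27 ± 0.62 (0.368), Csf2rb2, a receptor chain of IL-3, 0.81 ± 0.41 (0.385), and C3ar1, the complement C3a receptor, 0.46 ± 0.59 (edgeR adjusted p = 0.77). Csf2rb2 and Csf2rb are near-identical copies whose reads can be divided wrongly.

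Granulocyte transcription factors and adhesion genes had 0 calls by edgeR among 5 and 7 tested genes, 1 each by DESeq2 and 0 by limma-voom, with 1 each at an unadjusted p under 0.05. Sample quality weights in limma-voom gave 1 call among the factors, Cebpd, and 0 among the adhesion genes. Cebpd, a C/EBP factor of inflammation, was at 12.0, 7.75 and 8.91 CPM in treated 1, 2 and 3, against 5.44, 4.81 and 5.23 CPM in the controls (0.89 ± 0.19, edgeR adjusted p = 0.0749). Treated libraries were all above the controls for Cebpd, as for 12.0% of tested genes. Cebpb had 0.28 ± 0.22 (0.603) and Gfi1, a factor of granulocyte development, -1.20 ± 0.86 on few counts (edgeR adjusted p = 0.555). Selp, which encodes P-selectin, the molecule on which neutrophils roll, was at 3.17, 2.47 and 0.407 CPM in treated 1, 2 and 3, against 0.541, 0.326 and 0.491 CPM (2.15 ± 0.68, 0.185), and it was called without treated 3 and by DESeq2 (adjusted p = 0.0106 and 0.0219, and 0.0106 to 0.462 over the alternatives). Icam1, an integrin ligand, had 0.80 ± 0.35 (edgeR adjusted p = 0.319), Vcam1 0.76 ± 0.36 (0.349), and Itgb2, the shared chain of leukocyte integrins, -0.48 ± 0.28 (0.446). Of 7 endothelial markers tested, 4 rose, against 1.36% of all tested genes, and 2 rose without treated 1, against 1.24%. The sum of these markers was 162.1, 154.0 and 141.1 CPM in treated 1, 2 and 3, against 86.6, 82.7 and 88.0 CPM in the controls, so the sum was high in treated 3 as well. Not every marker was high there. Tek, at 0.542 CPM in treated 3, was below all controls (0.942, 1.165 and 0.965 CPM), and Kdr, at 11.8 CPM, was within the control range. Fibroblast markers, from another source of CXC chemokines, had 0 of 8 called by edgeR or DESeq2 and 1 with p under 0.05 before adjustment, and sums of 485.7 to 556.0 CPM in treated and 302.4 to 579.6 CPM in control tumours. Melanocyte lineage markers summed to 21640 to 23500 CPM in treated and 21010 to 23200 CPM in control tumours.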

How the data were processed

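Polyadenylated RNA of 6 tumour samples was sequenced in paired reads of 150 bp from libraries that mark strand, per the labels' protocols. The authors deposited 1 table with a raw count and an FPKM value per gene and library, per the file headers. Tools listed per the submitters' processing notes are edgeR, fastp and StringTie, without versions. Aligner, build and strand setting were not given in the sources used here. Gene spans of all 10 members equal those of GENCODE M21 (GRCm38), where no other gene overlaps them. One FPKM column has an extra suffix after its sample name. Over 13090 genes, FPKM divided by count was constant to within 1% for 99.4 to 99.6% of genes in a library.

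Groups follow the treatment label, with 3 libraries each. The raw counts entered edgeR 4.0.16 under R 4.3.3: filterByExpr (minimum count 10, minimum total 15), TMM (factors 0.974 to 1.014), glmQLFit and glmQLFTest on the group term, two-sided, with Benjamini-Hochberg adjustment over 18049 genes and a threshold of 0.05. The SE is the log2 fold change divided by the square root of F. Log2 CPM used a prior count of 2. The script was tested on simulated data. No library pair agreed within sampling noise (chi-square per gene 18.1 to 92.3). The precision of the genes with few counts is limited by those counts and by the spread between libraries. Alternatives were DESeq2 1.42.0, limma-voom (limma 3.58.1) with and without sample quality weights, other scalings and filters, a replicate block and each library left out.

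The 10 members and the 16 further lists were chosen with earlier results of these data known. The rule for named genes takes from each list the 3 genes of lowest p and the gene of highest mean CPM, and the 5 nearest profiles of Cxcl2, Cxcr2 and S100a8, of which 1 gene is not reported here; cell type markers are given as sums. Ly6g, S100a4, S100a6, Elane, Prtn3, Lcn2, Mmp9, Cd177, Ltf, Camp, Krt6a, Krt14, Ly6c2, Tek, Kdr, Csf1 and Csf2rb were named after their values were seen. The lists hold 147 further symbols, of which 141 are in the table.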

Additional observations from a re-analysis of the deposited data

How the results depend on the processing

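The count of members called higher was 0 in all settings but DESeq2, which gave 3, and ran from 0 to 4 with 1 library left out, the 4 being without treated 3. The count called lower was 0 throughout. Over all genes, 246 were called higher and 45 lower. DESeq2 gave 754 and 367, the voom fit that weights samples by quality 601 and 191, and the test without a filter 10 lower. With 1 library left out the counts ran from 94 to 308 higher and from 3 to 39 lower. The replicate numbers were not taken to pair the samples: same-numbered libraries had correlations of 0.0855, -0.164 and -0.107 between their deviations from the group means, and not every library was nearest to its own number. The fit with the replicate block gave 123 higher and 14 lower over all genes, with 0 members called. Of 138 member values under the alternatives, 130 kept direction and side of the threshold, 7 passed the threshold and 1 turned, that of Cxcl1, which ran from -0.022 (without control 3) to 0.60 with 1 library left out. Of the other named genes, C3ar1 turned, at -0.30 with sample quality weights and at -0.48 without treated 1, and ran up to 0.91 with another library left out. Cxcr2 and Csf3 gave no value under the filter with a minimum count of 50. The causes were not tested. Genes with few counts, such as Cxcr2, Ngp and Retnlg, are limited by depth and by the spread between libraries.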
